A study of Mus musculus with 24 samples.

Results

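The Nr4a genes Nr4a1, Nr4a2 and Nr4a3 encode the 3 orphan nuclear receptors of the NR4A family, also known as Nur77, Nurr1 and Nor1. They were chosen by gene symbol, and all 3 were found among the 55177 genes of the deposited tables. RNA sequencing had been carried out on 24 libraries of primary neurons cultured from the cortex of mouse embryos at embryonic day 16.5. Each embryo's cortex counted as a biological replicate in the submitters' protocol. At 7 days in vitro (DIV7), wild-type cultures were kept at rest (2 libraries) or depolarized for 30 min with 50 mM KCl (2 libraries), all with 0.1% DMSO, and poly(A) RNA was sequenced. At DIV18, total RNA depleted of ribosomal RNA was sequenced from cultures carrying a non-targeting guide RNA (NT, 2 resting and 2 KCl libraries), a Smarcc2 knockout guide with an empty vector (KO+vector, 3 and 3), or the knockout guide with wild-type Smarcc2 added back (KO+WT, 2 and 3). Knockout cultures with Smarcc2 carrying S586E were sequenced only at rest (KO+S586E, 3 libraries), and those with S586A only after KCl (KO+S586A, 2 libraries). Smarcc2 encodes a core subunit of the BAF chromatin remodelling complex. Every culture had been silenced overnight with 1 µM tetrodotoxin and 100 µM D-AP5. The knockout was made with CRISPR guides in a mixed primary culture and not in a clone, so edited and unedited cells were measured together.

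NR4A receptors are transcription factors of the nuclear receptor superfamily whose ligand pocket is filled by bulky side chains, so their activity depends mainly on how much protein is made. They bind the NBRE, a nuclear receptor half-site preceded by a pair of adenines, as monomers, and Nr4a1 and Nr4a2 can also pair with retinoid X receptors. In neurons the family belongs to the immediate early genes: calcium entry and cyclic AMP activate the factor CREB and its CRTC coactivators, and also MEF2 and SRF, at promoters that are already poised. Nr4a2 is best known for the development and upkeep of midbrain dopamine neurons, and the NR4A receptors have been linked to memory in the hippocampus.

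Nr4a1 (ENSMUSG00000023034.7) lies on the plus strand at chr15:101254269-101274795, Nr4a2 (ENSMUSG00000026826.13) on the minus strand at chr2:57106830-57124003, and Nr4a3 (ENSMUSG00000028341.9) on the plus strand at chr4:48045153-48086447, in build GRCm38. The promoter windows are shown because CREB sites near the start are the textbook link between depolarization and this family. Each window holds 250 bases before and 50 bases from the RefSeq start site on (build GRCm38.p6), written 5′ to 3′ along the gene. It covers chr15:101266596-101266895 (plus strand) for Nr4a1, chr2:57123954-57124253 (minus strand) for Nr4a2 and chr4:48045055-48045354 (plus strand) for Nr4a3. Capitals mark every CRE half-site, the core of a CREB site, as TGACG or, read on the other strand, CGTCA.
Nr4a1: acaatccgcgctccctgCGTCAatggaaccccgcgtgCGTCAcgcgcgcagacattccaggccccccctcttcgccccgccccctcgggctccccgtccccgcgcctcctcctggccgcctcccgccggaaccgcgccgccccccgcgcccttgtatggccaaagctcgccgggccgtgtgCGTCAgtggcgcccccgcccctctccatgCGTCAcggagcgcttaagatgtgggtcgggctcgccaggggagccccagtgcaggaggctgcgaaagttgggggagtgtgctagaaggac
Nr4a2: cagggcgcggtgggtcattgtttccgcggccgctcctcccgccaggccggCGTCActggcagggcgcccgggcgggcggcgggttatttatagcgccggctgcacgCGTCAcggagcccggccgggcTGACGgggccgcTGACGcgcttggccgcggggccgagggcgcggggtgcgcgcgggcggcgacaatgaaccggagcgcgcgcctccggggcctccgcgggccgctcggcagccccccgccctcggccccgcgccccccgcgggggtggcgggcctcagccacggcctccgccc
Nr4a3: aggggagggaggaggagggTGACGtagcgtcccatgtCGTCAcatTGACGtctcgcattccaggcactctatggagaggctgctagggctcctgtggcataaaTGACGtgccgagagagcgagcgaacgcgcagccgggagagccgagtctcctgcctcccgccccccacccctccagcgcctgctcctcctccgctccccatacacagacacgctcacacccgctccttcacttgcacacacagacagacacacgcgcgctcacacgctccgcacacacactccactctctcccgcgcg
Each window held 4 CRE half-sites. In Nr4a1 they lay between 233 and 36 bases before the start site, all on the minus strand. In Nr4a2 they lay between 200 and 107 bases before it, and in Nr4a3 between 231 and 143 bases before it, on both strands. Of the 32851 RefSeq promoter windows of this length, 20.8% held at least 1 half-site and 0.231% (76 windows) held 4 or more. The windows were also rich in G and C, at 72.3%, 81.7% and 64.7% against a median of 52.7%. Among the 6011 windows at least as GC-rich as that of Nr4a3, 32.2% held a half-site and 0.532% held 4 or more. The 8-base full CRE (TGACGTCA), the AP-1 site (TGACTCA), the NBRE (AAAGGTCA) and the CArG box of SRF had no exact match in the 3 windows on either strand. Near matches were not sought. The Nr4a2 window alone had 1 match to the MEF2 site, which overlapped its only TATAAA match, between 167 and 158 bases before the start. The RefSeq start of Nr4a1 was the first base of the forms Nr4a1-201 and Nr4a1-203. That of Nr4a2 was the first base of Nr4a2-203, whereas Nr4a2-201, the form with the most counts in most libraries, starts 8965 bases farther downstream and outside this window. The start of Nr4a3 lay 152 bases downstream of the first base of Nr4a3-201. A match is a run of letters and says nothing about binding in these neurons.

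In DIV7 neurons all 3 genes rose within 30 min of KCl, Nr4a1 the most and Nr4a3 the least. Levels are given as CPM, the count of a gene per fixed TMM-adjusted library size, which sets libraries side by side for 1 gene. Nr4a1 stood at 9.30 and 10.5 CPM at rest and at 512 and 563 after KCl. Nr4a2 stood at 7.51 and 7.41 at rest and at 161 and 149 after KCl. Nr4a3 stood at 104 and 109 at rest and at 412 and 410 after KCl. The groups were far apart for each gene, and the replicates lay close together beside that gap. Expressed as folds, the rise was 54.5-fold for Nr4a1 (95% interval 47.8 to 62.2), 20.7-fold for Nr4a2 (18.4 to 23.3) and 3.87-fold for Nr4a3 (3.6 to 4.15). By edgeR's quasi-likelihood test all 3 of 3 were called higher at an adjusted p under 0.05 (Benjamini-Hochberg), where 17% of the 19822 genes tested were called in either direction and 7.34% were called higher. The log2 fold changes were 5.77 (SE 0.0806, adjusted p = 1.54e-07), 4.37 (SE 0.0713, adjusted p = 2.74e-07) and 1.95 (SE 0.0439, adjusted p = 1.47e-06). Ordered by log2 fold change, Nr4a1 was gene 29, Nr4a2 gene 60 and Nr4a3 gene 325. A change of RNA per cell and a change in which cells were present cannot be told apart in such bulk samples. The 7 neuron markers summed to 3982 to 3988 CPM at rest and 3922 to 4001 after KCl, but by edgeR Map2 rose (0.20 on the log2 scale) and Tubb3 (-0.53) and Neurod6 (-0.15) fell. Of the 6 astrocyte markers, which summed to 301 to 341 CPM at rest and 255 to 277 after KCl with none at 0, Gfap (-0.49) and Slc1a3 (-0.22) fell by edgeR. DESeq2 called Map2 and Tubb3 but not Neurod6, Gfap or Slc1a3. The part of these markers in the Nr4a results was not tested.

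**Figure D1:**
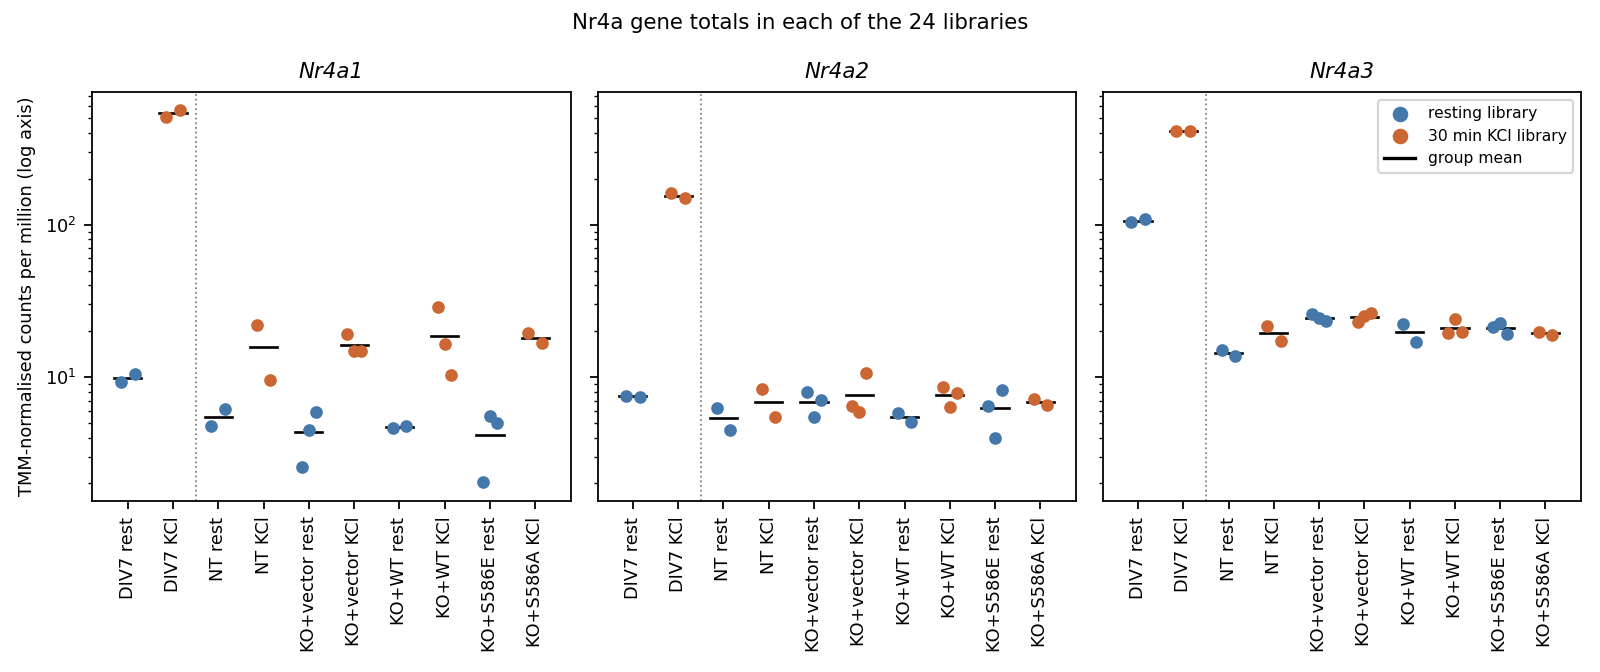
Gene totals of Nr4a1, Nr4a2 and Nr4a3 in each of the 24 libraries, as TMM-normalised CPM on a log axis (points, 1 per library; bars, group means); the dotted line parts the poly(A) DIV7 libraries from the total-RNA DIV18 libraries, which were normalised separately. At DIV7 the KCl libraries stand far above the resting ones for each gene, and at DIV18 the states part for Nr4a1 in each construct.

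At DIV18 the differences between rest and KCl were smaller. Nr4a1 stood 2.87- to 3.96-fold higher after KCl in each of the constructs with both states, while Nr4a2 and Nr4a3 stood at most 1.40-fold higher in summed counts. In NT cultures Nr4a1 was at 4.80 and 6.19 CPM at rest and at 21.8 and 9.61 after KCl. In KO+vector cultures it was at 2.58, 4.48 and 5.92 at rest and at 19.1, 14.7 and 14.7 after KCl. In KO+WT cultures it was at 4.60 and 4.79 at rest and at 29.0, 16.5 and 10.3 after KCl. No resting library reached a KCl library of its construct, although the KCl libraries of NT and KO+WT were spread widely. Groups that did not overlap in this direction were seen for 16.7% of all genes in NT, 8.21% in KO+vector and 11.3% in KO+WT. The KO+S586E libraries, all resting, held Nr4a1 at 2.03, 5.51 and 4.96 CPM, and the KO+S586A libraries, all depolarized, at 19.3 and 16.8. Over the 20 DIV18 libraries, the 10 depolarized ones thus lay between 9.61 and 29.0 CPM, all above the 10 resting ones at 2.03 to 6.19. Of the 20940 genes tested, 0.115% (24 genes) parted the 20 libraries in this way, and Nr4a1 was the only member among them.

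Tested within each construct by edgeR, the Nr4a1 change had a log2 fold change of 1.52 in NT (SE 0.454, adjusted p = 0.870), 1.91 in KO+vector (SE 0.389, adjusted p = 0.0887) and 1.98 in KO+WT (SE 0.437, adjusted p = 0.212), and none passed the threshold. Few genes did: 0.00955% of the 20940 tested were called in NT, 0.0716% in KO+vector and 0.043% in KO+WT. Without adjustment the p-values of Nr4a1 from edgeR were 0.00349, 1.02e-04 and 2.41e-04. DESeq2 called Nr4a1 in KO+vector (log2 fold change 1.90, adjusted p = 0.0113) and in KO+WT (1.98, adjusted p = 0.0397), but not in NT. An edgeR fit of only the KO+vector libraries also called it there (1.92, adjusted p = 0.0402). Without the first KCl library of NT, the log2 fold change there was 0.80. A further contrast, chosen after these values were seen, took the mean of the 3 responses in the same fit. Nr4a1 rose in it by a log2 fold change of 1.81 (SE 0.247, adjusted p = 0.00108 by edgeR), or 3.50-fold (95% interval 2.44 to 5.01), and was gene 75 of 20940 by log2 fold change. In that contrast 0.449% of genes were called, and 0.368% were called higher.

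Nr4a2 did not pass the test in a DIV18 response. It was at 6.24 and 4.50 CPM at rest and 8.34 and 5.44 after KCl in NT, and at 7.92, 5.49 and 7.07 against 6.45, 5.87 and 10.6 in KO+vector. In KO+WT it was at 5.79 and 5.08 at rest and at 8.56, 6.39 and 7.83 after KCl. The groups overlapped in NT and KO+vector and did not overlap in KO+WT. Its log2 fold changes were 0.36, 0.16 and 0.48 by edgeR (adjusted p = 1.0, 0.871 and 0.977). The mean over the 3 constructs was 0.33 (95% interval -0.02 to 0.69, adjusted p = 0.660 by edgeR). With an offset for the mean transcript length of each gene in each library it was 1.23 (adjusted p = 0.0521 by edgeR), above that interval. That offset moves with short forms of few counts, such as the 182-base Nr4a2-204, at 0 to 6 counts per DIV18 library. The KO+S586E libraries held Nr4a2 at 6.48, 3.99 and 8.25 CPM and the KO+S586A libraries at 7.21 and 6.60, within the range of the other constructs.

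Nr4a3 did not pass either. It was at 15 and 13.7 CPM at rest and 21.6 and 17.2 after KCl in NT, where the groups did not overlap. In KO+vector it was at 26.0, 24.5 and 23.2 at rest and 23.1, 25.1 and 26.4 after KCl, and in KO+WT at 22.3 and 17.0 against 19.5, 24 and 19.7. The groups overlapped in both. By edgeR the log2 fold changes were 0.43 in NT (SE 0.147, unadjusted p = 0.00853, adjusted p = 1.0), 0.02 in KO+vector (adjusted p = 0.980) and 0.10 in KO+WT (adjusted p = 0.981). The mean over the 3 constructs was 0.18 (95% interval 0.02 to 0.34, adjusted p = 0.551 by edgeR). Across the 3 single responses at DIV18, edgeR called no member, 2 of 3 members in NT and 1 of 3 in each of the others had an unadjusted p under 0.05, and DESeq2 called 0, 1 and 1.

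**Figure D2:**
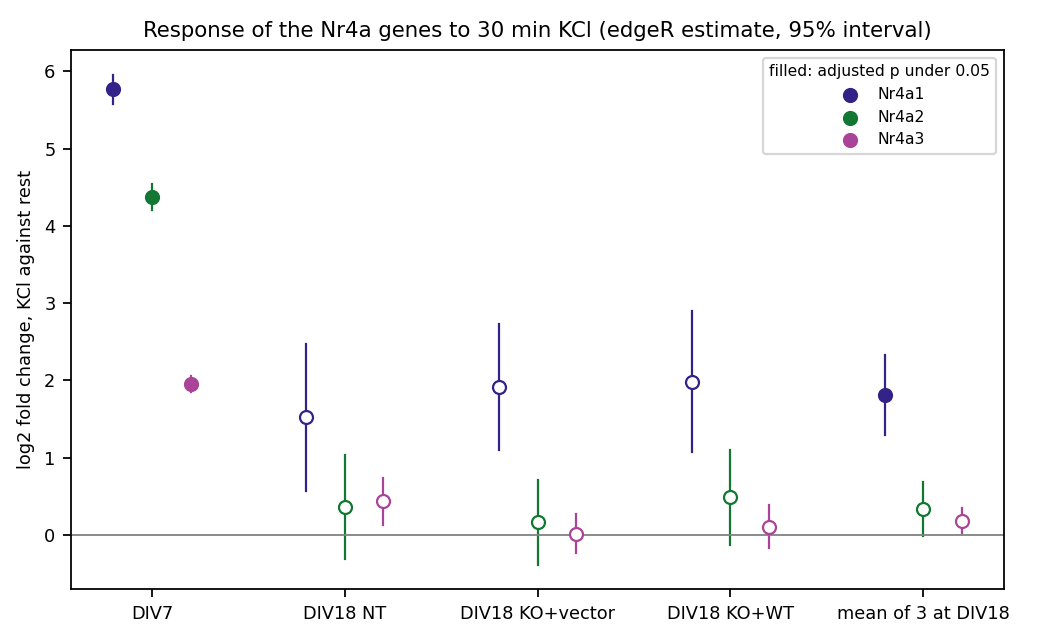
Log2 fold change of each Nr4a gene after KCl, as estimated by edgeR (points) with its 95% interval (lines), at DIV7, in each DIV18 construct with both states, and as the mean of those 3; filled points passed an adjusted p of 0.05. The DIV7 estimates of 5.77, 4.37 and 1.95 stand above those at DIV18, where Nr4a1 alone is filled, in the mean.

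The difference between the ages was tested in 1 fit of all 24 libraries, as the DIV7 response minus the NT response. It was 4.26 on the log2 scale for Nr4a1 (SE 0.572, adjusted p = 1.16e-04), 4.03 for Nr4a2 (SE 0.393, adjusted p = 2.35e-06) and 1.53 for Nr4a3 (SE 0.175, adjusted p = 1.53e-05) by edgeR. All 3 of 3 were called higher, where 0.49% of 22459 genes were called higher and 1.82% in either direction. With an offset for transcript length the differences were 2.69 (adjusted p = 0.0454), 4.79 (adjusted p = 1.82e-04) and 0.97 (adjusted p = 0.0328) by edgeR. The DIV7 rise of Nr4a2, without the offset, was 16.3-fold that in NT cultures (95% interval 9.25 to 28.8). Age, RNA selection (poly(A) against total), DMSO in the labels and the guide RNA all changed together between these groups, so they cannot be told apart.

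The size of the Nr4a response did not differ detectably between constructs at DIV18. The KO+vector response minus the NT response was 0.39 on the log2 scale for Nr4a1 (95% interval -0.85 to 1.64), -0.20 for Nr4a2 (-1.06 to 0.66) and -0.42 for Nr4a3 (-0.81 to -0.02, unadjusted p = 0.0399, adjusted p = 0.546 by edgeR). The KO+WT response minus the KO+vector response was 0.07 (-1.13 to 1.27), 0.32 (-0.50 to 1.14) and 0.09 (-0.29 to 0.46). None of the 3 members was called by edgeR in either, where 0% of all genes were called, and DESeq2 called none either. For Nr4a1 the intervals allow the response to be up to 3.11-fold larger or 0.555 times as large in KO+vector as in NT. The 2 comparisons share the KO+vector libraries.

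Of the 3 members, Nr4a3 alone was called between KO+vector and NT, at rest, where it was higher in KO+vector. Whether the members differ in this was not tested. The labels name a vector for KO+vector and not for NT, so knockout and vector cannot be told apart here. The targeted gene, Smarcc2, stood at 237 and 265 CPM in NT at rest, and its mean over the 3 KO+vector libraries at rest was 53.6 ± 9.12 CPM (SD). Resting Nr4a3, at 13.7 to 15 CPM in NT, lay at 23.2 to 26.0 in KO+vector, a 1.71-fold rise (95% interval 1.40 to 2.08; log2 0.77, SE 0.136, adjusted p = 0.00313 by edgeR). Of all genes 5.9% were called in this comparison and 2.13% were called higher. Without the second resting NT library the log2 value was 0.71 with an adjusted p of 0.0977 by edgeR, which does not pass. After KCl the difference was 0.36 on the log2 scale (adjusted p = 0.173 by edgeR, 2.67% of genes called). Resting Nr4a1 differed by -0.35 (95% interval 0.412- to 1.49-fold, adjusted p = 0.711) and resting Nr4a2 by 0.34 (0.827- to 1.94-fold, adjusted p = 0.559) by edgeR. Markers of other cells moved with this comparison. Of the 7 markers of the oligodendrocyte lineage, 4 were called lower by edgeR (Cspg4, Olig1, Pdgfra and Sox10), and the median log2 change of the 7 was -2.40. Their sum was 195 to 205 CPM in resting NT libraries and 133 to 151 in KO+vector, with at most 1 of 7 at 0, which was Sox10 in all 3 KO+vector libraries. The 6 astrocyte markers summed to 537 to 548 and 124 to 452 CPM, with none at 0 and a median log2 change of -0.80, and Aldoc was called lower. Of the 6 microglial markers 3 were tested and Csf1r was called lower; the list summed to 6.93 to 7.99 CPM in NT and 3.80 to 3.82 in KO+vector, with up to 3 of 6 at 0. Their part in the Nr4a3 result was not tested.

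Adding Smarcc2 back did not change a member past the threshold. Smarcc2 RNA stood above its NT level in each addback. Its mean at rest was 251 CPM in NT, 786 in KO+WT and 1225 in KO+S586E. After KCl it was 278 in NT, 907 in KO+WT and 1322 in KO+S586A. Mutant and wild-type addbacks thus differed in mean Smarcc2 level as well as in sequence, which cannot be told apart. With wild-type Smarcc2, resting Nr4a3 was at 17.0 to 22.3 CPM, between the NT and KO+vector ranges and overlapping neither (log2 -0.32 against KO+vector, unadjusted p = 0.0254, adjusted p = 0.376 by edgeR). In this comparison 0.0143% of all genes were called. KO+S586E, at 19.2 to 22.6 CPM, overlapped KO+WT and not the others. Resting groups in order of mean Nr4a3 level were therefore NT at 14.4 ± 0.901, KO+WT at 19.6 ± 3.72, KO+S586E at 21 ± 1.73 and KO+vector at 24.6 ± 1.39 (SD). After KCl the order was KO+S586A at 19.3 ± 0.495, NT at 19.4 ± 3.09, KO+WT at 21.1 ± 2.51 and KO+vector at 24.9 ± 1.66, and each group overlapped the next. KO+S586E minus KO+WT at rest was -0.16, 0.19 and 0.10 on the log2 scale for Nr4a1, Nr4a2 and Nr4a3, with 95% intervals of 0.468- to 1.72-fold, 0.745- to 1.75-fold and 0.884- to 1.3-fold. KO+S586A minus KO+WT after KCl was -0.04, -0.14 and -0.12, with intervals of 0.552- to 1.71-fold, 0.597- to 1.38-fold and 0.756- to 1.11-fold. With an offset for transcript length the Nr4a2 value was -1.34 (unadjusted p = 0.00803, adjusted p = 0.517 by edgeR), outside its interval. The 182-base form Nr4a2-204 weighs in that offset. It held a mean of 41.9% of the gene's TPM, counts scaled by transcript length, in KO+WT after KCl and 0% in KO+S586A. Its counts per library were only 6, 4 and 0 in KO+WT after KCl. None of the 3 members was called by edgeR or DESeq2 in the comparisons of mutant with wild-type Smarcc2. There edgeR called 0% of genes in each, and without the offset no member had an unadjusted p under 0.05. KO+WT minus KO+vector after KCl was 0.20, -0.0045 and -0.24, again with no member called (0.00955% of genes called by edgeR). The resting and KCl levels of Nr4a1 and Nr4a2 in the DIV18 constructs gave no such order: within each state, groups next to each other in mean level differed by less than the SD of 1 of them or overlapped.

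Levels can be compared between the 3 genes only per length, in TPM, which scales counts by transcript length. At DIV7 rest Nr4a3 was highest at 37.9 ± 2.32 TPM, against 11.5 ± 0.241 for Nr4a1 and 5.41 ± 1.35 for Nr4a2 (SD, n = 2). After KCl the order was Nr4a1 at 502.9 ± 31.8, Nr4a2 at 320.1 ± 43.6 and Nr4a3 at 146.0 ± 1.44. These sums depend on short forms, to which few counts but many TPM are assigned. Summed only over protein-coding forms of at least 2000 bases, a choice made after seeing the data, the levels after KCl were 380.9 ± 26.9 for Nr4a1, 124.4 ± 0.684 for Nr4a3 and 75.7 ± 3.53 for Nr4a2, so Nr4a2 and Nr4a3 changed places. At rest the long forms gave 32.8 ± 0.452 for Nr4a3, 7.06 ± 0.725 for Nr4a1 and 4.04 ± 0.115 for Nr4a2, the same order as all forms. In NT cultures at DIV18, the long forms stood at 1.99 ± 0.358 TPM for Nr4a1, 1.34 ± 0.439 for Nr4a2 and 2.24 ± 0.131 for Nr4a3 at rest, and at 4.15 ± 2.15, 1.56 ± 0.547 and 2.64 ± 0.530 after KCl. Only Nr4a1 passed from below Nr4a3 to above it in mean level, and its 2 KCl libraries, at 2.63 and 5.67, lay within and above the Nr4a3 range of 2.26 to 3.01.

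Each gene has several annotated forms, and the KCl response was not spread evenly over them. The 4 forms of Nr4a1, the 6 of Nr4a2 and the 4 of Nr4a3 were all present in the tables. Nr4a1-201 and Nr4a1-202 share all but their first exons: Nr4a1-202 begins 12577 bases farther upstream with 202 bases of its own. Nr4a1-203 is a 344-base form from the start of Nr4a1-201, with 176 bases inside that form's introns. Nr4a1-204 is an 893-base retained-intron form near the 3′ end, with 654 of its bases inside introns of Nr4a1-201. Nr4a3-204 is an 895-base noncoding form at the 5′ end of its gene, with 232 intronic bases.

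**Figure D3:**
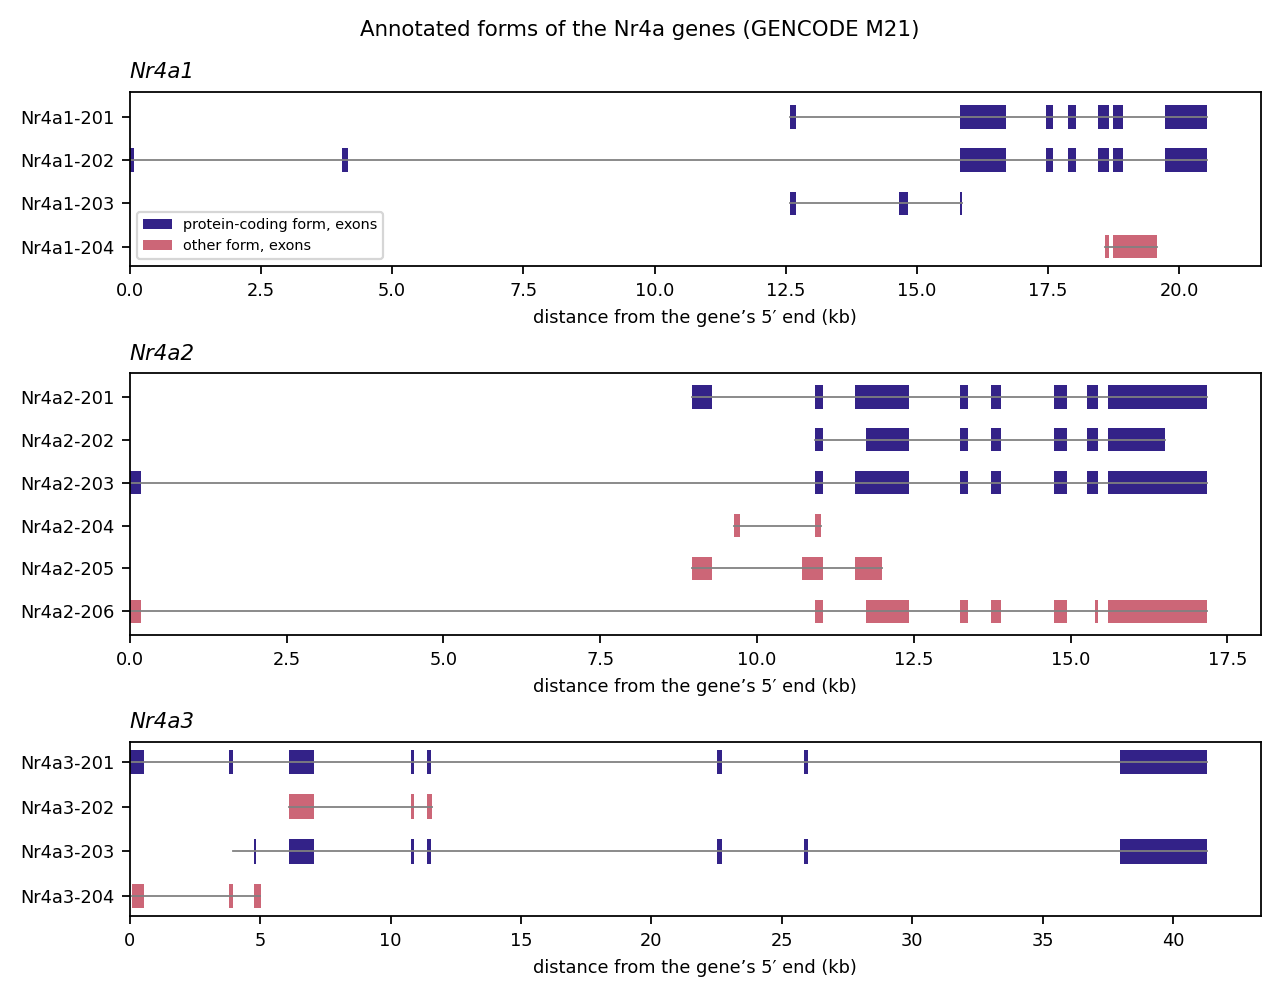
Exons (boxes) and introns (lines) of the annotated forms of each Nr4a gene, by distance in kb from the 5′ end of the gene (GENCODE M21; dark blue, protein-coding forms; red, other forms). Nr4a1-202 starts 12577 bases upstream of Nr4a1-201, and Nr4a2-203 starts 8965 bases upstream of Nr4a2-201.

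At DIV7 the main Nr4a1 form changed with depolarization. Assignment between these forms is kallisto's estimate from the reads that tell them apart. At rest the upstream-start form Nr4a1-202 held 89.9% and 89.3% of the gene's counts (238 and 232 estimated counts), and Nr4a1-201 held 4.05% and 7.35% (10.7 and 19.1). After KCl Nr4a1-201 held 90.2% and 90.7% (13670 and 14001 counts), and Nr4a1-202 held 3.46% and 3.46% (524 and 535). The shares did not overlap between the states. In an edgeR test of 53122 transcripts, added after the data were seen and with 1.36% called, Nr4a1-201 rose by 9.78 on the log2 scale (SE 0.218, adjusted p = 0.00691), the largest change of the 14 forms. Nr4a1-202 stood 1.11 higher (SE 0.130, adjusted p = 0.0529), which did not pass. Resting counts of Nr4a1-201 were few, so its fold rests on 10.7 and 19.1 counts. Nr4a1-203 (3.6, adjusted p = 0.0398) and Nr4a1-204 (7.98, adjusted p = 0.0195) also rose.

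Among the forms of Nr4a2, 4 of 6 passed at DIV7 by edgeR: Nr4a2-201 rose by 4.46 (adjusted p = 0.0355), Nr4a2-202 by 5.50 (adjusted p = 0.0134), Nr4a2-204 by 7.77 (adjusted p = 0.0453) and Nr4a2-205 by 6.36 (adjusted p = 0.0187). The upstream-start form Nr4a2-203, at 111 and 20.4 counts at rest and 171 and 231 after KCl, did not (1.63, adjusted p = 0.332). Its share of the gene's counts went from 51.7% and 11.1% to 3.59% and 5.65%. Nr4a2-204 is a 182-base noncoding form. It had 0 and 1.00 counts at rest and 169 and 116 after KCl. In Nr4a3, Nr4a3-201 alone passed (1.95, SE 0.0520, adjusted p = 0.00973 by edgeR), the same size as the gene's total, and it held 91.5% to 96.4% of the counts in the DIV7 libraries. Over the 3 genes, 8 of 14 forms passed, all of them higher.

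**Figure D4:**
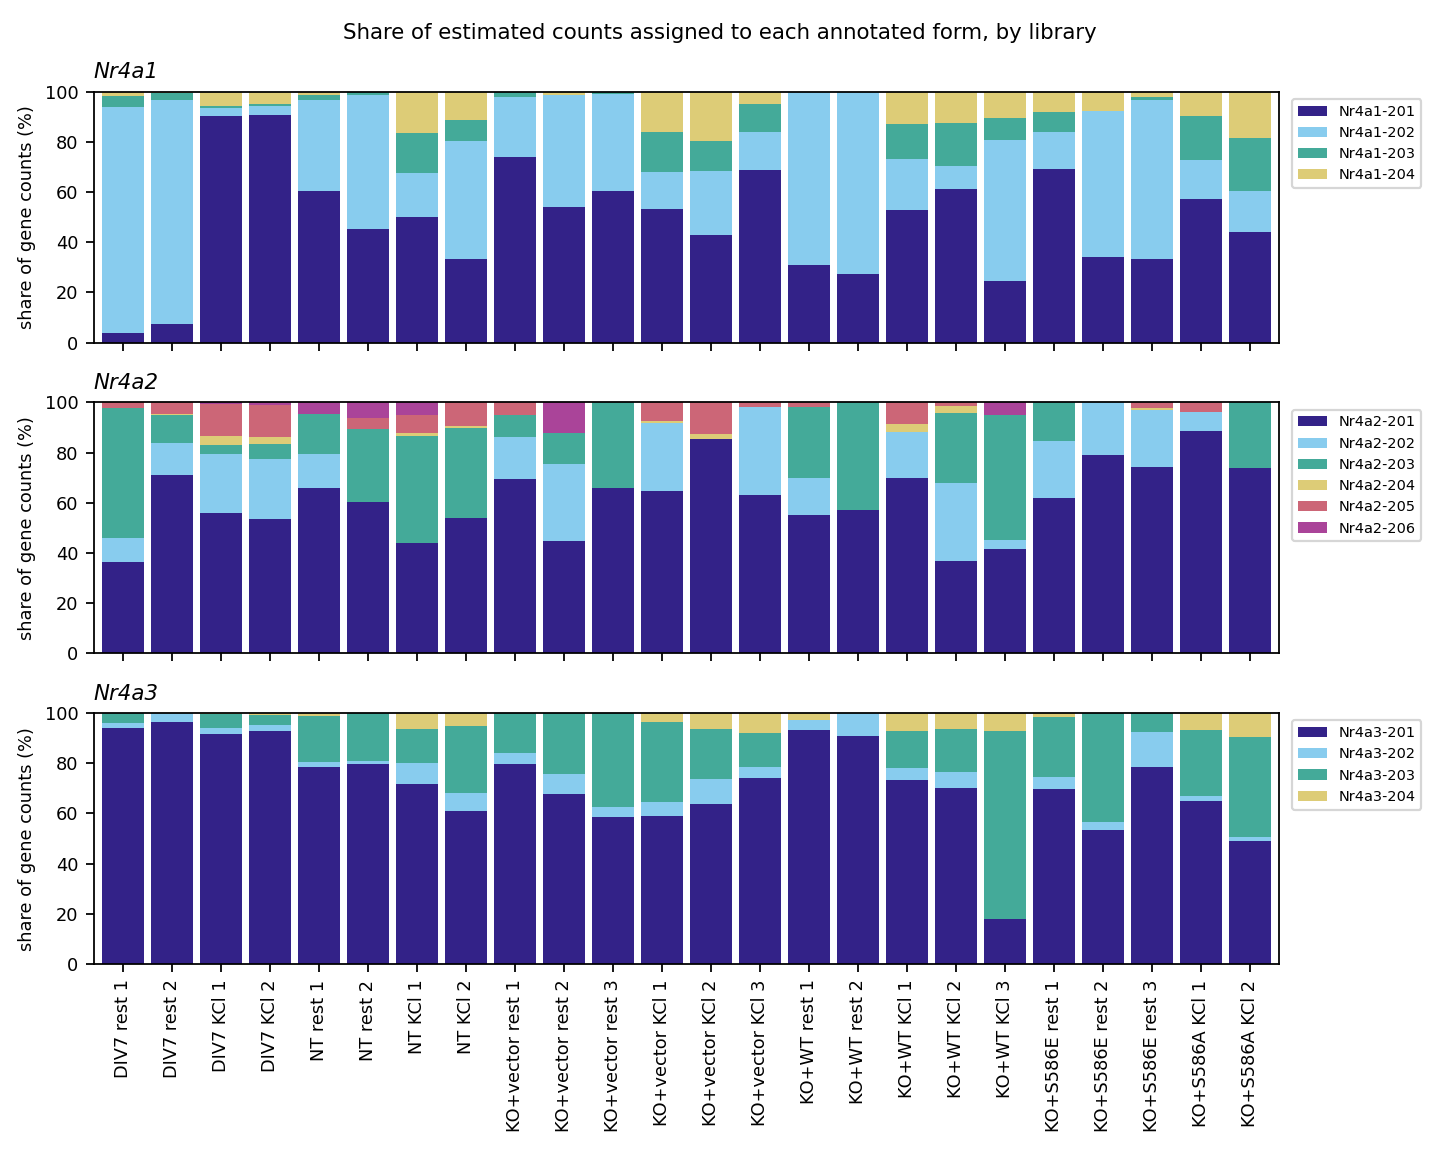
Share of each gene's estimated counts assigned to each annotated form, in percent, in each of the 24 libraries (stacked bars, 1 per library). Nr4a1-202 fills most of the resting DIV7 bars and Nr4a1-201 most of the DIV7 bars after KCl, and at DIV18 Nr4a1-203 and Nr4a1-204 appear after KCl.

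At DIV18 the long forms of Nr4a1 were mixed at rest, with Nr4a1-201 at 27.5% to 73.9% of the gene's counts and Nr4a1-202 at 14.7% to 72.5%. After KCl the median count of Nr4a1-201 was 177 (56.2 to 355), against 39.4 (25.6 to 68.2) at rest, with overlapping ranges. Its log2 fold changes were 1.31 in NT, 1.77 in KO+vector and 2.75 in KO+WT by edgeR, none called. The median of Nr4a1-202 went from 50.8 to 61.2 counts. Among the members' forms, the states parted without overlap only in short forms that hold intron sequence. These libraries were made from total RNA, so reads of unspliced RNA may be counted in such forms. The short forms and unspliced RNA cannot be told apart here. Nr4a1-203 had 0 to 3.00 estimated counts in the 10 resting libraries and 14.9 to 94.0 in the 10 KCl libraries. Nr4a1-204 had 0 to 9.64 at rest and 11.3 to 85.2 after KCl. Nr4a3-204 had 0 to 12.2 at rest and 15.9 to 33.0 after KCl. No resting library overlapped a KCl library for these 3 forms, and they were the only ones of the 12 members' forms tested to part so. Of all 59803 transcripts tested, 0.0401% (24) parted the libraries in this way; the forms were picked after their values were seen. The summed counts of Nr4a3 changed little over the same libraries, and its main form Nr4a3-201 had 213 to 438 counts at rest and 79.4 to 369.0 after KCl. The value of 79.4 came from 1 KO+WT library, in which 328 counts were assigned to Nr4a3-203. For Nr4a2 no form parted the states: Nr4a2-205 had 0 to 7.16 counts at rest and 0 to 17.0 after KCl. Per transcript, edgeR called none of the members' forms in NT, KO+vector or KO+WT, where 0.00167%, 0.015% and 0.00334% of 59803 transcripts were called. The lowest adjusted p-values were 0.731 for Nr4a1-204 in NT, 0.185 for Nr4a1-204 in KO+vector and 0.115 for Nr4a3-203 in KO+WT. Nr4a3-203 shares 98.5% of its bases with Nr4a3-201, and counts may be assigned to either. In KO+WT it had 0.04 and 0.54 counts at rest and 66.0 to 328 after KCl. Of the 12 forms tested there, 3, 5 and 4 had an unadjusted p under 0.05. DESeq2 was not run per transcript.

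**Figure D5:**
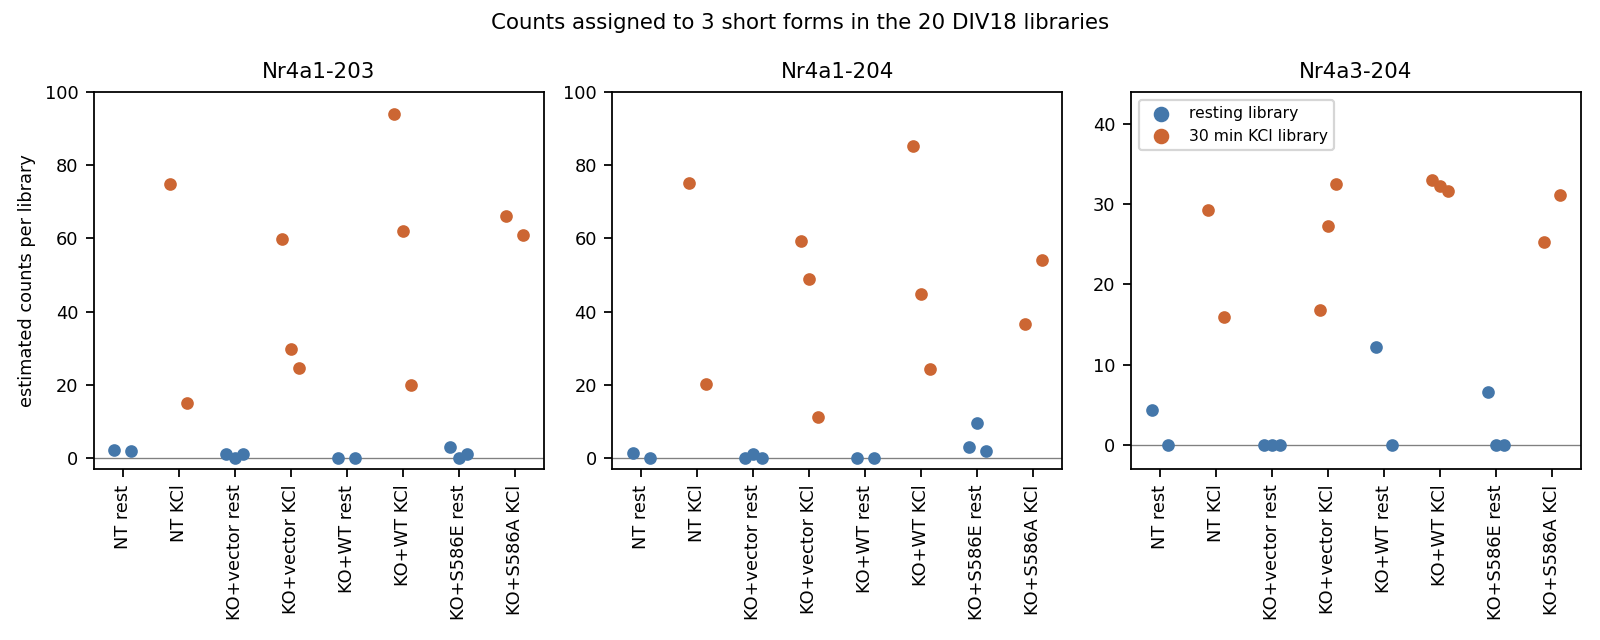
Estimated counts assigned to Nr4a1-203, Nr4a1-204 and Nr4a3-204 in each of the 20 DIV18 libraries (points, blue at rest, orange after KCl; linear axes that differ between panels). In each panel all KCl points lie above all resting points, at 14.9 to 94.0, 11.3 to 85.2 and 15.9 to 33.0 counts. Reads of unspliced RNA cannot be told apart from these forms.

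TPM, in which short forms weigh more per length, and CPM gave different responses at DIV18. Over all forms, Nr4a1 went from 2.48 to 17.9 TPM in NT, from 1.66 to 18.0 in KO+vector and from 1.40 to 20.5 in KO+WT. Over long forms it went from 1.99 to 4.15, from 1.46 to 4.46 and from 1.40 to 5.06. When the change in mean transcript length was carried into the edgeR fit as an offset, the Nr4a1 log2 fold change was 2.83 in NT (adjusted p = 0.0948), 3.32 in KO+vector (adjusted p = 0.00177) and 3.58 in KO+WT (adjusted p = 0.00546). With the same offset, the log2 fold change of Nr4a2 was 1.17 in NT, 0.82 in KO+vector and 1.70 in KO+WT (unadjusted p = 0.00153), and that of Nr4a3 was 1.04, 0.46 and 0.41, none of them called (adjusted p from 0.0734 to 1.0 by edgeR). Nr4a2-204, at 0 to 6 counts per DIV18 library, held on average 36.1% of Nr4a2 TPM after KCl in NT, 27.0% in KO+vector and 41.9% in KO+WT. At rest it held 0% in each. Its part in the Nr4a2 values was not tested. With the offset, the mean response of Nr4a3 was 0.64 (adjusted p = 0.00413 by edgeR), which passes where the fit without the offset did not. The DIV7 response of Nr4a2 with it was 5.97.

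The RNA of factors thought to act on the Nr4a genes changed far less at DIV7 than that of the Nr4a genes themselves. Protein and activity of these factors were not measured. Of 15 upstream factors, 6 rose and 3 fell by edgeR, where 17% of all genes were called and 7.34% rose. Their median log2 change was 0.11 against -0.0014 for all genes. Hdac9 (0.61, adjusted p = 8.48e-04) and Hdac5 (0.17, adjusted p = 0.0420), class IIa deacetylases that repress MEF2, rose, as did Srf (0.57, adjusted p = 0.00142), the CArG-box factor. Mef2a (0.21) and Mef2c (0.16), which encode MEF2 factors, and Ep300 (0.24), a histone acetyltransferase, also rose. The genes of the CREB coactivators fell: Crtc3 by 0.59 (adjusted p = 0.0104), Crtc2 by 0.47 (adjusted p = 0.0128) and Crtc1 by 0.23 (adjusted p = 0.0182). Crtc3 went from 21.8 and 22.3 CPM at rest to 13.4 and 15.9 after KCl. Creb1 itself stood at 0.01 (adjusted p = 0.932). None of the 3 retinoid X receptor partners passed by edgeR or DESeq2, and 1 of them, Rxra, had an unadjusted p under 0.05 (-0.41, adjusted p = 0.0825).

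Of 10 textbook targets of NR4A receptors, Bdnf, a neurotrophin gene that depolarization also drives by other routes, rose by 1.12 (adjusted p = 0.00408 by edgeR), from 22.1 and 27.5 CPM to 46.7 and 61.1. That is 1 of 10 beside 17% of all genes. The other 9 did not pass, Th, the rate-limiting enzyme of dopamine synthesis, among them (-1.07, adjusted p = 0.163). Beside the Nr4a genes, 33 of 46 other nuclear receptor genes were tested at DIV7, with a median log2 change of -0.03. Of them 3 were called, a smaller share than the 17% of all genes. Ppara, a fatty acid receptor, rose by 2.24 (adjusted p = 0.00422 by edgeR) but from 11 and 14 counts to 57 and 71. Rarg, a retinoic acid receptor, fell by 1.19 (adjusted p = 0.00189), and Nr1h3, an oxysterol receptor, fell by 1.24 at 31 counts or fewer (adjusted p = 0.0473). At DIV18 none of the genes of these lists was called by edgeR in the NT, KO+vector or KO+WT response or in their mean. In the mean response, 1 of 15 upstream factors, 1 of 3 partners, 0 of 6 corepressors, 0 of 10 targets and 4 of 35 other receptors had an unadjusted p under 0.05, and DESeq2 called 1, the orphan receptor gene Nr6a1, which it also called in KO+vector; this gene was singled out after its values were seen.

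Across the 20 DIV18 libraries the members did not follow one another closely. Pearson's r of their log2 CPM was 0.35 between Nr4a1 and Nr4a2, 0.07 between Nr4a1 and Nr4a3 and 0.35 between Nr4a2 and Nr4a3. In the same order r was -0.43, -0.40 and 0.31 in the 10 resting libraries. In the 10 depolarized libraries it was 0.35, 0.15 and 0.31. The genes most like Nr4a1 among 15134 were Ier2 (r = 0.97), Arc (0.97), Egr4 (0.96), Gm47075 (0.95) and Fosb (0.95), 4 of them known early-response genes. Within the 10 depolarized libraries alone, r with Nr4a1 was 0.94 for Ier2, Fosb and Arc, 0.89 for Egr4 and 0.82 for Gm47075, at ranks 7 to 121. For Nr4a2 the closest were A830008E24Rik (0.80), Cckbr (0.80), Plekha5 (0.79), Gm3608 (0.76) and Zfp40 (0.74). Within the depolarized libraries their r was 0.72 to 0.81, at ranks 34 to 167. For Nr4a3 they were Syt10 (0.86), Tent5a (0.86), Slc17a6 (0.84), Gabrg3 (0.83) and Fam214a (0.81). Within the depolarized libraries r was 0.49 for Fam214a and 0.68 to 0.76 for the others, at ranks 131 to 1588. Each list was picked for the 5 highest of 15134 values, which favours high r in any list. These values describe libraries that share constructs and states, so the points are not independent.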

How the data were processed

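Reads had been assigned to transcripts with kallisto after cutadapt and FastQC, per the submitters' processing notes; versions, build and annotation are not given in the sources used here. The authors deposited, per the file headers, an estimated count and a TPM value for each transcript. Of 142552 transcripts, 99.2% matched GENCODE M21 (GRCm38), and the others held at most 0.467% of a library's counts. The counts of a gene's transcripts were added up and rounded to whole counts. Totals ran from 24536056 to 30135576 at DIV7 and from 14510199 to 24024959 at DIV18. Genes were tested two-sided with edgeR 4.0.16 (R 4.3.3, quasi-likelihood F test, TMM, filterByExpr, Benjamini-Hochberg, threshold 0.05), with DIV7 fitted alone (2 residual degrees of freedom, common biological coefficient of variation 6.44%) and the DIV18 libraries together (12, 14.6%). DESeq2 1.42.0 was an alternative. Members and lists (genes upstream, partners, corepressors, targets, other receptors, cell markers) were chosen with earlier results of these data known. Named beside the members were Smarcc2, list genes called in a KCl response and the 5 genes most correlated with each member. Replicates of a group differed by more than counting noise. p-values measure the spread between cultures of separate embryos, as the protocol defines replicates. The DIV7 result of the corepressor list is not reported here.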

Additional observations from a re-analysis of the deposited data

Results flagged for a closer look

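The KCl response of each Nr4a gene differed between DIV7 and DIV18 NT cultures in the edgeR fit of all 24 libraries. The difference was 4.26 on the log2 scale for Nr4a1, 4.03 for Nr4a2 and 1.53 for Nr4a3, larger at DIV7 in each case (edgeR adjusted p = 1.16e-04, 2.35e-06 and 1.53e-05). With length offsets the differences were 2.69, 4.79 and 0.97 (edgeR adjusted p = 0.0454, 1.82e-04 and 0.0328). Without the offsets, and with each library left out in turn, they stayed between 3.79 and 4.97, 3.75 and 4.37, and 1.38 and 1.71. RNA selection, the DMSO label and the guide RNA changed with age and cannot be told apart from it.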

How the results depend on the processing

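Of 525 alternative log2 values for the 42 results on the members, 480 kept direction and call, 1 lost its call, 9 gained one and 35 changed sign. All calls at DIV7, in the age difference and, for Nr4a1, in the mean DIV18 response held in each alternative. Where a value changed, the cause was not tested. The call lost was Nr4a3 in KO+vector minus NT at rest, 0.71 to 0.83 with a library left out. Nr4a1 gained a call without the low-count filter (1.52 in NT, 1.92 in KO+vector, 1.97 in KO+WT). In NT the estimate was 1.52 with and without the filter, while its edgeR adjusted p went from 0.870 to 2.06e-10. Genes called there went from 2 to 192. Nr4a1 also gained calls in KO+vector and KO+WT with length offsets (3.32 and 3.58) and with DESeq2 (1.90 and 1.98). In KO+vector it gained one in the fit of only the groups compared (1.92). The mean response of Nr4a3 gained one with length offsets (0.64). Depth limits the DIV18 values: resting Nr4a1 rested on 37 to 135 counts per library, and its short forms on fewer than 10.

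Sign changed, with no call in any case, with length offsets in Nr4a3 of the KO+WT minus KO+vector response (-0.052), Nr4a1 of KO+vector minus NT after KCl (-0.0008), Nr4a1 (-0.0437) of KO+WT minus KO+vector at rest, Nr4a2 of the same after KCl (0.48; 0.0031 without the filter), and Nr4a1 of KO+S586E (0.28) and KO+S586A (0.26) minus KO+WT. Leaving out libraries gave, for responses, Nr4a2 -0.15 to 0.32 and Nr4a3 -0.0296 to 0.0668 in KO+vector and Nr4a3 -0.0853 to 0.31 in KO+WT; for KO+vector minus NT responses, Nr4a1 -0.0729 to 1.11 and Nr4a2 -0.51 to 0.15; for KO+WT minus KO+vector responses, Nr4a1 -0.40 to 0.35 and Nr4a3 -0.10 to 0.29. In levels it gave, for KO+vector minus NT after KCl, Nr4a1 -0.43 to 0.75 and Nr4a2 -0.16 to 0.48; for KO+WT minus KO+vector, Nr4a1 -0.14 to 0.41 at rest and -0.28 to 0.49 after KCl, where Nr4a2 was -0.16 to 0.30; for KO+S586E minus KO+WT, Nr4a1 -0.42 to 0.16, Nr4a2 -0.0633 to 0.44 and Nr4a3 -0.0823 to 0.31; and for KO+S586A minus KO+WT, Nr4a1 -0.32 to 0.43.

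The replicate block used the replicate numbers of the labels as pairs. Same-numbered KO+vector libraries at rest and after KCl correlated at 0.128, 0.0689 and 0.238 in their deviations, with 2 of 3 closest to their own number, so the numbers were not taken as pairs. KO+vector and KO+WT libraries after KCl correlated at 0.106, 0.114 and 0.236, each closest to its own number. The block changed no member's call, and it turned the sign of Nr4a2 in KO+vector minus NT after KCl (-0.0047), KO+WT minus KO+vector after KCl (0.0219) and KO+S586A minus KO+WT (0.0068). With the block the genes called were 5857 at DIV7, 6 in NT, 36 in KO+WT minus KO+vector at rest, 43 in KO+S586E and 1 in KO+S586A minus KO+WT.

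The number of genes called, over all genes, moved with the settings. The reported counts were 3371 (DIV7 response), 2 (NT), 15 (KO+vector), 9 (KO+WT), 94 (mean), 408 (age difference), 0 and 0 (KO+vector minus NT and KO+WT minus KO+vector responses), 1236 and 560 (KO+vector minus NT at rest and after KCl), 3 and 2 (KO+WT minus KO+vector), 0 (KO+S586E) and 0 (KO+S586A). Without the filter they were, from NT on, 192, 515, 196, 442, 657, 448, 116, 2016, 1437, 604, 127, 782 and 225. With DESeq2 they were 2217 at DIV7, 15, 52, 32 and 151 in the DIV18 responses and their mean, 7 and 1 for the response differences, 933 for KO+vector minus NT after KCl, 178 and 6 for KO+WT minus KO+vector, and 319 and 19 for KO+S586E and KO+S586A. With length offsets they were 1 in NT, 51 in the mean, 244 in the age difference, 682 and 278 in KO+vector minus NT and 1 in KO+S586E. Fits of only the groups compared gave 0 in NT, 5 in KO+WT, 60 in the mean, 1 in the KO+vector minus NT response, 225 in KO+vector minus NT at rest, 43 in KO+S586E and 22 in KO+S586A. Leaving out a library gave 1459 to 2630 at DIV7, 0 to 5 in NT, 5 to 10 in KO+vector, 1 to 12 in KO+WT, 28 to 95 in the mean, 196 to 297 in the age difference, 0 to 1 in the KO+vector minus NT response, 100 to 1031 and 37 to 241 in KO+vector minus NT, 2 to 23 and 2 to 4 in KO+WT minus KO+vector, and 0 to 1 in KO+S586E and in KO+S586A.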
